A study of Homo sapiens with 3 samples.

Results

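The clustered histone genes encode the bulk of the histone proteins, and their mRNAs mostly end without a poly(A) tail. They were examined here in libraries selected for poly(A) RNA. Members were all genes whose listed name starts with HIST1H, HIST2H, HIST3H or HIST4H, which gave 73 of the 23284 genes. The 4 clusters held 56 (HIST1), 13 (HIST2), 3 (HIST3) and 1 (HIST4) of them. By histone type, 6 genes encode H1, 18 H2A, 20 H2B, 14 H3 and 15 H4, counting the pseudogenes that carry such names.

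RNA-seq was carried out on 293T, an established line of human kidney cells. All 3 conditions carried dCas9-VP64, in which a Cas9 that no longer cuts DNA is joined to the activator VP64. The first condition received a mock sgRNA, the second sgL1ASP #1 and the third sgL1ASP #3, which are guides to the antisense promoter of the L1 retrotransposon. Each condition has 1 library, so differences could not be set against a replicate spread and p-values are not given. The share of cells that took up the plasmids is not given for the RNA-seq samples in the sources used here. In bulk RNA, fewer cells that express a gene and less RNA per cell cannot be told apart.

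Each library holds 1 FPKM value per gene, the fragments mapped to the gene scaled to the length of its transcript and the size of the library, so that levels of different genes can be set beside each other per length. Values of many weakly expressed genes were whole multiples of what 1 read is worth. The depth estimated from them was 10400000 reads for mock, 10300000 for sgL1ASP #1 and 8700000 for sgL1ASP #3. The 293T label was checked against its markers. The intermediate filament gene VIM was at 807.4, 903.5 and 862.2 FPKM in mock, sgL1ASP #1 and sgL1ASP #3, the order used for all triplets of values below. The neuronal filament genes INA, NEFL and NEFM, which this line expresses, were at 29.74 to 32.94, 9.076 to 9.608 and 5.765 to 6.018 FPKM. The kidney lineage genes LHX1 and PAX2 were at 1.476 to 1.765 and 0.5217 to 0.6577 FPKM. PTPRC of blood cells, DCN of fibroblasts and HBB of erythroid cells were listed at 0 in the 3 libraries, while ALB of liver was at 0.2837 to 0.4667 FPKM and PECAM1 of endothelium at 0 to 0.1349 FPKM.

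Clustered histone genes are transcribed in S phase, when new DNA needs histones. Their pre-mRNAs have no introns and are cut just after a conserved stem-loop in the 3′ UTR. The stem-loop binding protein SLBP holds the stem-loop, and the U7 snRNP, which contains LSM10 and LSM11, directs the cut. The stem-loop does the work that the poly(A) tail does for other mRNAs, and such mRNAs are largely lost when RNA is selected on oligo(dT). A few clustered genes are known also to make polyadenylated transcripts from a signal further downstream. Many histone variants encoded outside the clusters, such as H2AFZ and H3F3B, make ordinary polyadenylated mRNAs that are not limited to S phase. Others differ, as H2AFX also makes a stem-loop mRNA and CENPA is expressed mainly in G2.

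The stem-loop was searched for in the 100 bases after the stop codon of each member, on the RNA strand of the GRCh37 (hg19) genome with the GENCODE annotation. It was defined as 16 bases that start with GG and end with CC, in which 6 bases on each side pair and G with T counts as a pair, around a loop of 4 bases whose first 3 are C or T. All 65 members with an annotated stop codon held one, against 109 of 18914 transcripts of the MANE set of 1 main transcript per gene (0.576%, members included). It began 23 to 68 bases after the stop codon, with a median of 36. The sequences below, read from the genome, are shown because they are those of the 3 members, and of the H3 and the H4 gene, with the highest mean FPKM over the 3 libraries. Capitals mark the stem-loop, with 5 bases before and after it, and the coordinates are those of the capitals. A match is a description of the sequence only.
HIST1H2BK, chr6:27114145-27114160, minus strand: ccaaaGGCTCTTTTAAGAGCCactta
HIST3H2A, chr1:228645070-228645085, minus strand: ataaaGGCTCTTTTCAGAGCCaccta
HIST1H1C, chr6:26055972-26055987, minus strand: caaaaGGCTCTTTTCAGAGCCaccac
HIST1H3H, chr6:27778294-27778309, plus strand: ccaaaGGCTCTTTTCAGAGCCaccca
HIST1H4E, chr6:26205229-26205244, plus strand: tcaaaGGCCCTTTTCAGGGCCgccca

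The form of HIST3H2A, HIST1H1C and HIST1H3H was the most frequent and was held by 38 members. The form of HIST1H2BK, which ends its loop with A, was held by 9 members, among them HIST1H2BD, HIST1H2BJ, HIST1H2BC and HIST3H3. The 13 H4 genes with an annotated stop codon all had the stem that begins GGCCCT, as in HIST1H4E, and 0 of the other members had it. There were 10 different stem-loops in all. HIST1H2AK and HIST1H2AG are shown because each has 1 pair of G with T in its stem, and the other members have 0.
HIST1H2AK, chr6:27805663-27805678, minus strand: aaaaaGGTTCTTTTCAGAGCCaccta
HIST1H2AG, chr6:27101294-27101309, plus strand: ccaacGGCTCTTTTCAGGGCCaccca

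The clustered genes were scarce in these libraries. Of the 73, 31 (42.5%) were listed at 0 in all 3 libraries, compared with 5642 (24.2%) of all genes. Of the other 42, 22 were above 0 in every library. Members above 0 numbered 33, 32 and 30 in the libraries. The mean FPKM over the libraries was at least 1 for 15 members (20.5%), against 55.1% of all genes, and at least 5 for 3 members. The median mean FPKM of all genes at or above 1 was 12.3.

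A read was worth a median of 0.365, 0.369 and 0.447 FPKM for these short genes. Whole numbers of reads in the 3 libraries were assigned to 38 of the 42 members above 0. Their ratios between libraries were whole numbers with a tolerance of 0.6%, and a common factor was set from transcript length. Members above 0 in only 1 library, such as HIST1H3F, pass this in any case, so their numbers rest on length. HIST1H4B, HIST1H2BG and HIST2H2BC have no annotated length, and the median of their type was used. For 4 members (HIST1H2BK, HIST3H2A, HIST1H1C and HIST1H2BD) the numbers are estimates from the annotated length. A library with 0 reads allows up to 3 reads, which comes to a median of 1.09, 1.11 and 1.34 FPKM. Of the members with assigned reads, 21 had 5 or fewer in the 3 libraries together. Counting intervals given below cover counting error only, since reads without molecular identifiers are not independent molecules.

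HIST1H2BK, an H2B gene of the HIST1 cluster, was the highest member by mean FPKM, at 26.39, 24.9 and 31.03, from about 74, 69 and 72 reads. It ranked 3570 among all genes by mean FPKM, at the 72.2 percentile of the genes with mean FPKM of at least 1. HIST3H2A, an H2A gene of the HIST3 cluster, was at 28.09, 26.45 and 27.05 FPKM, from about 82, 77 and 66 reads. The order of these 2 genes differed between libraries. HIST1H2BK was above HIST3H2A only in sgL1ASP #3. HIST1H1C, a linker histone H1 gene, was at 6.539, 6.44 and 7.212 FPKM, from about 33, 32 and 30 reads. Together they held 66.6%, 63.6% and 63.7% of the summed FPKM of the 73 genes.

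Among the H1 genes, HIST1H1C held 88.7% of the type's FPKM in mock and 94.8% in sgL1ASP #3. HIST1H1E followed at 0.4948, 0.5013 and 0.397 FPKM, from 3, 3 and 2 reads. HIST1H1D had 2 reads in mock and 0 in the other libraries. HIST1H1T, the H1 of the testis, was listed at 0 throughout, as were HIST1H2AA and HIST1H2BA, an H2A and H2B pair of the testis. The fourth testis-type gene, HIST3H3, was at 1.046, 0.7065 and 0.4196 FPKM, from 3, 2 and 1 reads. Its reads were too few to order the libraries.

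Among the H2A genes, HIST3H2A was followed by 3-library mean by HIST1H2AM, at 1.706, 3.111 and 1.232 FPKM, from 5, 9 and 3 reads. HIST1H2AH was next by that mean, at 1.649, 1.253 and 0.9919 FPKM, from 4, 3 and 2 reads. HIST2H2AC was at 0.8315, 0.4212 and 2.001 FPKM, from 2, 1 and 4 reads, and HIST1H2AG had 3, 3 and 4 reads. With sgL1ASP #3, HIST1H2AK (2.273 FPKM, 5 reads), HIST2H2AC and HIST1H2AG were above HIST1H2AM and HIST1H2AH. HIST1H2AM had most reads with sgL1ASP #1 and HIST2H2AC fewest there, but these numbers were too few to order the libraries, as were those of the other low members named here. Outside HIST1H2BK, HIST1H2BD had the highest mean of the H2B genes, at 3.147, 2.017 and 2.272 FPKM, from about 9, 5 and 5 reads. HIST3H2BB was at 0.7803, 2.767 and 2.817 FPKM, from 2, 7 and 6 reads, and was lower in mock than in both guide libraries, where it was above HIST1H2BD. HIST1H2BO had 4, 6 and 3 reads and was also above HIST1H2BD with sgL1ASP #1. HIST2H2BC, which RefSeq lists as a pseudogene, had 5, 7 and 6.

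The H3 genes had no abundant member. HIST1H3H was at 3.952, 1.82 and 3.89 FPKM, from 11, 5 and 9 reads, and was lowest with sgL1ASP #1. HIST1H3B was at 1.442, 3.288 and 2.17 FPKM, from 4, 9 and 5 reads, and was above HIST1H3H in that library only. The H4 genes had the lowest listed sum of the types, although in 4 of the 15 (HIST1H4J, HIST1H4K, HIST2H4A and HIST2H4B, all listed at 0) 91.4% or more of the windows of read length occur elsewhere, so that reads from them may not have been placed. HIST1H4E was at 2.25, 1.71 and 1.354 FPKM, from 4, 3 and 2 reads. HIST4H4, the single member on chromosome 12, was at 0.4666, 0.9455 and 1.685 FPKM, from 1, 2 and 3 reads. HIST1H4I had 0, 1 and 2 reads. With sgL1ASP #3, HIST4H4, HIST1H4B (1.532 FPKM, 2 reads) and HIST1H4I (1.411 FPKM) were above HIST1H4E. These reads were again too few to order the libraries.

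5 members were listed at 0 in 1 library and at 1 FPKM or more in another. HIST1H2AK, an H2A gene, was at 0.3778, 0 and 2.273 FPKM, from 1, 0 and 5 reads. HIST1H2AL, also H2A, had 1, 3 and 0 reads, HIST1H3F 3, 0 and 0, and HIST1H4B 0, 0 and 2. HIST1H4I, described above, was the fifth. Each library was the one at 0 for some of them.

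The order of the types by summed FPKM was the same in the 3 libraries. H2B summed to 36.9, 38.3 and 43.9 FPKM and H2A to 36.0, 34.4 and 35.8. H3 summed to 8.63, 7.32 and 9.19 FPKM and H1 to 7.37, 7.11 and 7.61. H4 was lowest in every library, with the limit on placing reads given above, at 2.72, 3.78 and 5.98 FPKM, from only 5, 7 and 9 reads. By cluster, HIST1 summed to 58.4, 56.3 and 64.4 FPKM, HIST3 to 29.9, 29.9 and 30.3, HIST2 to 2.86, 3.69 and 6.12, and HIST4 to 0.467, 0.946 and 1.69. As listed, the 3 genes of HIST3 had several times the FPKM of the 13 genes of HIST2. The limit on placing reads bears on HIST2 too, since every window of read length in 5 of its members occurs elsewhere. The HIST2 sum may therefore be too low. HIST3H2A alone held 93.9%, 88.4% and 89.3% of the HIST3 sum.

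Shared sequence bears on which genes could receive reads. In 5 members of HIST2 (HIST2H2AA4, HIST2H3A, HIST2H3C, HIST2H4A and HIST2H4B), every window of the 75-base read length occurs elsewhere in the genome. They were listed at 0 in all 3 libraries, and how reads with several positions were shared out is not given in the sources used here. Over 50% of windows were shared in 11 members, of which 8 were at 0 throughout. No window was shared in 42 members, and 18 of these were also at 0 throughout. In HIST1H2BK 39.0% of windows were shared and in HIST3H2BB 27.5%, so their values are less certain than that of HIST3H2A, in which 0 were.

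Levels were then set beside the 3′ ends. The annotation reaches over 100 bases past the stem-loop in at least 1 transcript of 17 of the 65 members, and of these 12 were above 0 in some library and the median mean FPKM was 0.702. In the other 48 members, 27 were above 0 and the median was 0.136. HIST3H2A was in the first set and HIST1H2BK and HIST1H1C were in the second, so that annotated length did not separate the 3 highest genes. A poly(A) signal, taken as AATAAA or ATTAAA on the RNA strand, lay within 400 bases of the stop codon in 17 of the 65 (26.2%), against 46.9% of MANE transcripts. In 4 members it began within 50 bases past the stem-loop. These were HIST1H1C and HIST1H2BD, at the thirteenth base in each, and HIST1H2AB and HIST2H2AA4. HIST1H2AB had 2, 1 and 0 reads. HIST2H2AA4 was listed at 0, but as all its windows are shared its level is not known. The signals of the expressed pair are shown with 10 bases on each side, with the signal in capitals.
HIST1H1C: cactgatctcAATAAAagagctggat
HIST1H2BD: gcatgttttcAATAAAtgagttgtaa

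In HIST3H2A the first signal began 367 bases past the stem-loop, and in HIST1H2BK 1553 bases past it. HIST2H2BE, an H2B gene annotated as a transcript of 2224 bases that runs past its stem-loop, had 16, 20 and 19 reads but only 0.7556, 0.9568 and 1.08 FPKM, since FPKM divides by length.

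Many H2A and H2B genes lie head to head. There were 10 pairs of members on opposite strands whose starts lay within 500 bases, and each joined an H2A with an H2B gene, with starts 194 to 251 bases apart. In 8 pairs both genes were above 0. HIST1H2BK was above its partner HIST1H2AH by 16.0-fold in mock, 19.9-fold in sgL1ASP #1 and 31.3-fold in sgL1ASP #3. HIST3H2A was above HIST3H2BB by 36.0-fold, 9.56-fold and 9.6-fold, where HIST3H2BB had only 2 reads in mock. Of the other 6 pairs, 3 had both genes above 0 in every library (HIST1H2AG with HIST1H2BJ, HIST1H2AM with HIST1H2BO and HIST2H2AC with HIST2H2BE). HIST1H2AC and HIST1H2BC were above 0 together in no library. Where both partners of these 6 pairs were above 0, the gene with the higher mean was at 0.418-fold to 3.14-fold of the other, and which partner was higher differed between libraries. Their 3-library means lay 1.11-fold to 1.56-fold apart, but leaving out 1 library moved these folds. For HIST1H2BN to HIST1H2AK the fold went from 1.11 to 5.26 without sgL1ASP #3, 0.77 without mock and 0.806 without sgL1ASP #1. For HIST1H2BL to HIST1H2AI it went from 1.56 to 3.63 without sgL1ASP #1 and 0.709 without sgL1ASP #3. HIST2H2AC to HIST2H2BE went from 1.17 to 0.732, and HIST1H2AG to HIST1H2BJ from 1.21 to 0.939, both without sgL1ASP #3. HIST1H2AC was under HIST1H2BC without mock or without sgL1ASP #3. HIST1H2AM stayed above HIST1H2BO, at 1.05-fold to 1.3-fold. The 2 highest members were thus each high on 1 side of a pair. The 2 pairs at 0 on both sides were HIST1H2AA with HIST1H2BA and HIST1H2AJ with HIST1H2BM.

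Histone variants outside the clusters were measured in the same libraries. The 12 genes on this list summed to 1372, 1341 and 1326 FPKM, which was 15.0-fold, 14.8-fold and 12.9-fold the sum of the 73 clustered genes. These sums cover unlike sets, since the 12 are of H1, H2A and H3 only and the 73 also include H2B and H4. Within types, the fold was 44.2, 47.1 and 43.2 for H1, 22.4, 22.4 and 21.1 for H2A, and 27.7, 32.2 and 26.4 for H3. H2AFZ, an H2A variant found at promoters, was highest at 456.6, 435.9 and 406.9 FPKM. H3F3B, which encodes the H3.3 replacement histone, was at 183.1, 182.6 and 185.7 FPKM. The linker variants H1F0 and H1FX were at 173.4 to 176.5 and 149.0 to 161.6 FPKM. H3F3A, which encodes the same protein as H3F3B, was listed at 0.002159, 0.002151 and 0.002154 FPKM, and 91.3% of its windows of read length occur elsewhere in the genome. It adds almost nothing to the H3 sum.

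The question of the study was what changes when the L1 antisense promoter is activated. The summed FPKM of the clustered genes was 91.66, 90.89 and 102.5. The reads behind them were about 289, 286 and 268. Per 1000000 reads this came to 27.7 (95% exact Poisson interval 24.6 to 31.1), 27.8 (24.7 to 31.2) and 30.9 (27.3 to 34.9). Corrected for depth, the ratio of reads was 1.0 for sgL1ASP #1 to mock (95% exact interval 0.848 to 1.18), 1.12 for sgL1ASP #3 to mock (0.941 to 1.32) and 0.898 for sgL1ASP #1 to sgL1ASP #3 (0.758 to 1.07). Without the 3 highest genes, about 100, 108 and 100 reads were left, with ratios to mock of 1.09 (0.826 to 1.45) and 1.2 (0.903 to 1.6). All of these intervals held 1, so a difference in the total was not detectable at this depth. For the sum of all 73 genes the 3 intervals lay within 1.5-fold of 1.

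Single genes were compared as log2(FPKM + 0.1), which understates changes of low genes, and 1.5-fold on this scale was taken as the limit. Only the 15 members with mean FPKM of at least 1 entered these counts. With sgL1ASP #1 against mock, 4 members were higher (HIST1H2AM, HIST1H3B, HIST3H2BB and HIST4H4), where 1.76% of the 12830 genes past the same filter were higher. The 3 members that were lower were HIST1H2BD, HIST1H3H and HIST2H2AC, against 1.79% of those genes. With sgL1ASP #3 against mock, 4 members were higher (HIST1H2AG, HIST2H2AC, HIST3H2BB and HIST4H4), against 1.75%. All 4 were under 1 FPKM in mock and passed the filter on the mean through a guide library. With FPKM of at least 1 required in every library, 10 members were left and 0 of them were higher with sgL1ASP #3, against 0.972% of the 12347 genes left. HIST1H2AH and HIST1H4E were lower with sgL1ASP #3, against 2.05%. Between the guides, HIST1H2AM and HIST1H2BO were higher in sgL1ASP #1, against 1.96% of those genes. HIST1H2AG, HIST1H3H, HIST2H2AC and HIST4H4 were higher in sgL1ASP #3, against 1.82%.

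The members' counts are not set against these shares as a result, since most of the 15 had a mean between 1 and 3 FPKM, where the filter on the mean can let a gene through by the library in which it is high, and the median of all genes past the filter was 12.3. The 11 members past 1.5-fold in some comparison had at most 11 reads in any library. The 4 that were not, HIST1H2BK, HIST3H2A, HIST1H1C and HIST2H2BC, had up to 82, but HIST2H2BC had only 5, 7 and 6, fewer than some of the 11. The exact interval of the depth-corrected ratio held 1 for each of the 40 members with reads in sgL1ASP #1 or mock and for each of the 38 with reads in sgL1ASP #3 or mock. Between the guides it held 1 for 36 of 37. The exception was HIST1H2AK, with 0 reads against 5, where the ratio of sgL1ASP #1 to sgL1ASP #3 was at most 0.919. No adjustment was made over these 115 intervals. For members with very few reads the interval holds 1 however the reads are split. HIST1H3F, with 0 reads in sgL1ASP #1 against 3 in mock, had an interval of 0 to 2.45. The counts of intervals that held 1 therefore do not show that single genes were unchanged. HIST3H2BB and HIST4H4 were past 1.5-fold with both guides against the same mock library, in which they had 2 and 1 reads. For HIST3H2BB the ratio was 3.55 (0.675 to 35.0) with sgL1ASP #1 and 3.61 (0.646 to 36.6) with sgL1ASP #3.

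The better covered genes bound the change more closely. For HIST1H2BK the ratio to mock was 0.945 (0.67 to 1.33) with sgL1ASP #1 and 1.17 (0.835 to 1.64) with sgL1ASP #3. For HIST3H2A it was 0.951 (0.688 to 1.31) and 0.969 (0.69 to 1.36). HIST1H1C gave 0.982 (0.585 to 1.65) and 1.09 (0.644 to 1.85). Of the clusters without these genes, HIST2 had 23, 30 and 33 reads, with a ratio of 1.73 (0.984 to 3.08) for sgL1ASP #3 to mock and 1.32 (0.742 to 2.38) for sgL1ASP #1 to mock. HIST1 had 71, 67 and 57 reads, with ratios of 0.966 (0.67 to 1.39) and 0.956 (0.674 to 1.35). HIST3 had 5, 9 and 7 reads, with ratios of 1.68 (0.46 to 6.73) and 1.82 (0.549 to 6.93). By type, again without the 3 highest genes, the ratios of sgL1ASP #1 and sgL1ASP #3 to mock were 1.01 (0.535 to 1.92) and 1.09 (0.566 to 2.1) for H2A, 1.27 (0.836 to 1.93) and 1.31 (0.854 to 2.02) for H2B, and 0.844 (0.442 to 1.59) and 1.05 (0.557 to 1.97) for H3. With 9 reads or fewer per library, they were 1.42 (0.387 to 5.67) and 2.17 (0.652 to 8.23) for H4, and 0.81 (0.161 to 3.77) and 0.481 (0.0458 to 2.94) for H1. All of these intervals held 1.

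Over the 15 members the median log2 difference was -0.022 for sgL1ASP #1 against mock, 0.139 for sgL1ASP #3 against mock and -0.032 for sgL1ASP #1 against sgL1ASP #3. With FPKM of at least 1 in every library, the second median turned to -0.038 over 10 members. The same medians over the 12830 genes were 0.001, 0.001 and -0.003. The first 2 comparisons share the mock library.

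The genes that make and handle histone mRNA all had a mean FPKM of at least 1 in the same libraries, but their levels differed widely. Some lay under the median of 12.3 for all genes past that filter. Among genes of histone mRNA decay, ERI1 was at 4.003 to 5.17 FPKM, XRN1 at 7.065 to 7.69 and DCP2 at 8.982 to 9.444. POU2F1, of histone gene transcription, was at 3.089 to 3.578 FPKM. The 21 genes of 3′ end processing included SNRPB at 410.9 to 436.9 FPKM and SNRPD3 at 122.6 to 131.0, which encode Sm proteins of snRNPs. SLBP itself was at 103.6, 113.9 and 108.2 FPKM, and SRRT, which acts with the cap-binding complex, at 97.84 to 104.9. The U7-specific genes LSM10 and LSM11 were at 48.05 to 53.22 and 6.794 to 7.883 FPKM. Of the 13 genes of histone mRNA decay, the highest were LSM7 (216.6 to 236.7 FPKM), LSM3 (107.5 to 119.2) and LSM4 (96.33 to 98.25), of the LSM ring that binds the 3′ end, and EXOSC10 (91.16 to 94.61), a nuclease of the nuclear exosome. In these lists 0 genes were past 1.5-fold in any comparison, where 1.75% to 2.05% of the 12830 genes were in each direction, and in lists of this size a count of 0 lies near that share.

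The 9 genes of histone gene transcription included E2F1 at 67.65 to 71.67 FPKM, CDK2 at 66.2 to 67.8, the Cajal body gene COIL at 22.06 to 22.76 and CCNE1, encoding cyclin E1, at 14.22 to 18.29. NPAT, the coactivator of the clusters that cyclin E and CDK2 act on, was at 9.535, 9.609 and 9.375 FPKM. Of the 19 histone chaperones, SSRP1 was highest in each library at 225.2 to 234.8 FPKM, followed by NAP1L1 at 177.9 to 189.5, NASP at 111.3 to 114.6 and SUPT16H at 82.04 to 83.86. SSRP1 and SUPT16H are the subunits of FACT. Of the 43 S-phase genes, PCNA, the clamp of DNA polymerases, was at 277.7, 271.2 and 261.2 FPKM, MCM2 of the replicative helicase at 130.8 to 139.2, GINS2 at 114.0 to 122.1 and CDCA7 at 113.5 to 119.1. Of these 3 lists, which share genes with the lists above, 0 genes were past 1.5-fold in any comparison, beside the same 1.75% to 2.05%. The median log2 differences of the S-phase genes were -0.013, -0.035 and 0.023 for sgL1ASP #1 against mock, sgL1ASP #3 against mock and sgL1ASP #1 against sgL1ASP #3.

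Other stable RNAs that carry no poly(A) tail were listed as a measure of such RNA in each library. Of 10 on the list, 5 were among the listed genes. RMRP, the RNA of RNase MRP, was at 2.769, 15.43 and 11.66 FPKM, from 2, 11 and 7 reads, and RPPH1, the RNA of RNase P, was at 0, 4.316 and 2.564 FPKM. Both were lowest in mock. The ratio of RMRP to mock was 5.57 (1.22 to 51.7) with sgL1ASP #1 and 4.21 (0.802 to 41.6) with sgL1ASP #3. TERC, the telomerase RNA, had 1, 1 and 0 reads, and RNY4 and RNY5 were listed at 0. The summed clustered histone reads per 1000000 stood at 27.7, 27.8 and 30.9 beside these values, and any part of tail-less RNA in them was not tested.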

How the data were processed

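The authors prepared poly(A)-selected stranded mRNA libraries, sequenced single 75-base reads and mapped them to hg19. They deposited 1 FPKM value per gene and library, calculated with Cuffdiff 2.2.1. Per the submitters' notes, TopHat2 2.0.13, Bowtie2 2.2.3 and SAMtools 0.1.19 were also used. The gene annotation is not given in the sources used here.

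The 73 members were taken by name, and 0 columns belonged to no sample. The members, gene lists and comparisons were chosen with earlier results of these data known. Genes past 1.5-fold were counted on log2(FPKM + 0.1) at mean FPKM of at least 1, with no test. Reads per gene came from whole multiples of FPKM, using 352 of 1476 and 333 of 1404 low genes for the ratio of 1 read's worth to mock (1.013 and 1.2033), and from transcript length less 200 bases. Intervals were exact (Clopper-Pearson for ratios) at 95%. Simulated data were used to check the ratio of 1 read's worth, read numbers up to a common factor and the 1.5-fold calls. The common factor, the intervals, the shared windows and the stem-loop search were not checked in this way.

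Positions were taken from GENCODE 44 lifted to GRCh37, which held 67 members, and older names were matched to RefSeq names of the GRCh38.p14 table, which gave no coordinates here. Named genes were the 3 highest of each type, members outside HIST1 with mean FPKM of at least 1, those past 1.5-fold, those at 0 in 1 library and at 1 or more in another, the testis-type genes, and the 4 highest of each list. Other genes were named after their values were seen. Python 3.11.15, NumPy 2.4.6, pandas 2.3.3, SciPy 1.17.1, pysam 0.24.0 and matplotlib 3.10.9 were used.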

Additional observations from a re-analysis of the deposited data

How the results depend on the processing

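No paired analysis was possible because every condition consists of a single library, and for the same reason no replicate could be left out. Of 93 values under alternative settings, 72 stayed within 1.5 times (counts) or 1.5-fold (other values) of the one reported and 21 did not, all of them counts of members past 1.5-fold. Of such counts 33 stayed. The rest were 24 medians and 15 log2 ratios of sums, too small for 1.5-fold to be a strict limit. A median that turned from 0.139 to -0.038 was taken as staying. Leaving out genes that share most windows kept the same 15 members, so their counts could not move. The number that stayed is thus weak evidence of stability. With no filter on level, of 73 members those higher and lower were 14 and 12 for sgL1ASP #1 against mock (4.61% and 4.69% of all genes), 12 and 11 for sgL1ASP #3 against mock (4.38% and 5.18%), and 11 and 14 for sgL1ASP #1 against sgL1ASP #3 (5.15% and 4.62%). The shares given from here on are of the genes past the same filter as the members. Requiring FPKM of at least 1 in every library left 10 members, of which 2 were higher in sgL1ASP #1 than in mock (0.867%), 0 were higher and 1 was lower in sgL1ASP #3 than in mock (0.972% and 1.07%), and 1 was lower in sgL1ASP #1 than in sgL1ASP #3 (1.03%). With a threshold of 2-fold, of 15 members 2 were higher and 1 lower for sgL1ASP #1 against mock (0.826% and 0.624%), 0 were lower for sgL1ASP #3 against mock (0.733%), and 1 was higher and 2 lower for sgL1ASP #1 against sgL1ASP #3 (0.92% and 0.756%). With a pseudocount of 1, of 15 members 1 was lower for sgL1ASP #1 against mock (0.826%), 0 were lower for sgL1ASP #3 against mock (0.998%), and 1 was higher and 2 lower for sgL1ASP #1 against sgL1ASP #3 (1.18% and 1.05%).

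Rescaling each library to a sum of 1000000 let 21 members past the filter, of which 6 were lower for sgL1ASP #1 against mock (3.11%) and 5 were higher for sgL1ASP #1 against sgL1ASP #3 (2.87%). With the 15 members kept, a setting added after seeing the data, these counts were 3 (2.53%) and 3 (2.17%). The rescaling put the median of all genes at -0.092, -0.117 and 0.023 on the log2 scale, and moved the log2 ratio of the summed FPKM from -0.012 to -0.106 for sgL1ASP #1 and from 0.161 to 0.041 for sgL1ASP #3. The log2 ratio of the sum for sgL1ASP #1 against mock was 0.016 without HIST1H2BK and 0.111 without the 3 highest genes, the latter chosen after seeing the data. Depth limits what the single genes can show, since 21 members with reads had 5 or fewer in all.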
